A study of Mus musculus with 4 samples.

Results

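The transcription factors described here are the 9 genes Tbx21, Eomes, Gata3, Foxp3, Rora, Runx1, Runx2, Runx3 and Bhlhe40, which steer CD4+ T cells into effector and regulatory fates other than the T follicular helper (Tfh) fate, or which act beside the factors that do. They were chosen by name and matched to the counted genes by symbol, and all 9 were found among the 54752 genes listed, of which 54723 carried a symbol. RNA was sequenced from mouse spleen CD4+ T cells in 4 libraries, 2 labelled WT and 2 labelled Mek1/2-tKO. WT mice were littermate controls, and Mek1/2-tKO mice carried Cd4-Cre with Map2k1 fl/fl and Map2k2 fl/fl on the C57BL/6 background, so that both genes, which encode the kinases MEK1 and MEK2, were removed in T cells by a Cre driven from the Cd4 promoter. Naïve CD4+ T cells of both genotypes were activated through CD3 and CD28 with IL-6 while TGF-β, IL-4, IFN-γ and IL-2 were blocked by antibodies, conditions that favour Tfh cells, and viable cells were sorted again on day 3. The number, age and sex of the mice behind these libraries were not given in the sources used here. The labels do not say that the libraries of a genotype came from separate animals, so the p-values measure the spread between these libraries, which may be technical.

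In an activated CD4+ T cell, cytokine and antigen-receptor signals lead to the expression of a master factor that opens the genes of its own lineage and restrains those of the others. T-bet (Tbx21) and Eomesodermin (Eomes) are T-box factors of the Th1 and cytotoxic programs, GATA-3 is the factor of Th2 cells, RORα (Rora) takes part in the Th17 program, and Foxp3 defines regulatory T cells (Treg). The Runx proteins bind DNA together with CBFβ and cooperate with several of these factors, with Runx3 acting in Th1 and CD8+ T cells and Runx1 in naïve T cells and Treg, while Bhlhe40 is a basic helix-loop-helix repressor induced by activation that supports inflammatory cytokine production and also acts in the circadian clock.

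The 3 Runx genes are related in sequence and share a feature of their regulatory DNA that the choice of genes did not use. Promoter windows from RefSeq on GRCm38.p6, running from 250 bases before to 50 bases after each annotated start, were matched for 8 of the 9 genes, with 11 windows in all. Windows on a chromosome that carries none of the 9 genes were left out of the windows counted. The hexamer TGTGGT, the core that Runx proteins bind, was searched on both strands. It stood in 16.8% of the 32851 windows kept and in 3 of the 11, the distal windows of Runx1, Runx2 and Runx3. In each of these 3 it occurred as a pair on the same strand whose starts lay 8 bases apart, an arrangement found in 7 of the 32851 windows (0.0213%). This pair was noticed after the data had been seen. The pairs are shown with 30 bases each, 5′ to 3′ on the strand of the gene, and the capitals mark the hexamers, which read here as the reverse complement of TGTGGT.
Runx1: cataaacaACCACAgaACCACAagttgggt
Runx2: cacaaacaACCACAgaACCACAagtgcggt
Runx3: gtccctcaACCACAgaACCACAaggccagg
The stretches lie at chr16:92826025-92826054 on the minus strand for Runx1, at chr17:44814583-44814612 on the minus strand for Runx2 and at chr4:135120503-135120532 on the plus strand for Runx3. The Runx1 stretch is identical to that of Runx2 at 27 of 30 bases, and the Runx3 stretch at 21 of 30. In Runx1 and Runx2 the pair lies within the 50 bases after the start, and in Runx3 its hexamers begin 134 and 126 bases before the start. A match of letters is a description and not a binding site. The other windows of Runx1 and Runx3, at their proximal promoters, hold no such hexamer, and counts per gene do not tell transcripts of the distal promoter from those of the proximal one.

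The libraries held 16330802 to 18931090 counts, and values are given as CPM, counts divided by the library total after edgeR's TMM scaling. A gene without a count may have had up to 3, which is 0.154 to 0.194 CPM on this scale and covers counting error only. Map2k1 was measured at 182 and 187 CPM in WT and at 98.0 and 105 CPM in Mek1/2-tKO, a log2 fold change of -0.86 ± 0.08 (SE, adjusted p = 1.29e-06 with edgeR's quasi-likelihood test), and Map2k2 at 154.5 and 164.7 CPM in WT and 172 and 182 CPM in Mek1/2-tKO (log2 fold change 0.15 ± 0.08, adjusted p = 0.126 with edgeR). Counts over the whole gene do not show whether the deleted exons were read, so they check the labels only in part. The label of a CD4+ T cell held for WT, with Cd4 at 297 and 289.5 CPM, but in Mek1/2-tKO Cd4 stood at 18.8 and 25.1 CPM while Cd8a reached 147 and 130.0 CPM. Markers of other cells moved with the genotype as well: all 15 B-lineage markers, 14 of 15 NK-cell markers, all 6 tested of 8 γδ T-cell markers, both CD8 T-cell markers, 8 of 8 tested of 13 myeloid markers and 5 of 5 tested of 9 innate lymphoid and mast cell markers were called higher in Mek1/2-tKO. The summed level of the B-lineage list rose from 1348 and 1323 to 7188 and 7157 CPM. That of the NK-cell list rose from 106 and 111 to 784 and 703 CPM. The αβ T-cell list went from 4249 and 4322 to 3521 and 3317 CPM, with 1 of its 15 genes called higher and 8 lower. Of its genes for the αβ receptor chains, Trac fell (log2 fold change -0.98), while Trbc1 (0.16) and Trbc2 (-0.03) were not called. Blk stands in both the B-lineage and the γδ T-cell list. Of the marker genes, Elane of the myeloid list and Rxrg of the innate lymphoid and mast cell list had no count in any library. In bulk RNA, fewer cells of a type and less RNA per cell cannot be told apart, and the part of these marker genes in the results below was not tested.

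**Figure D1:**
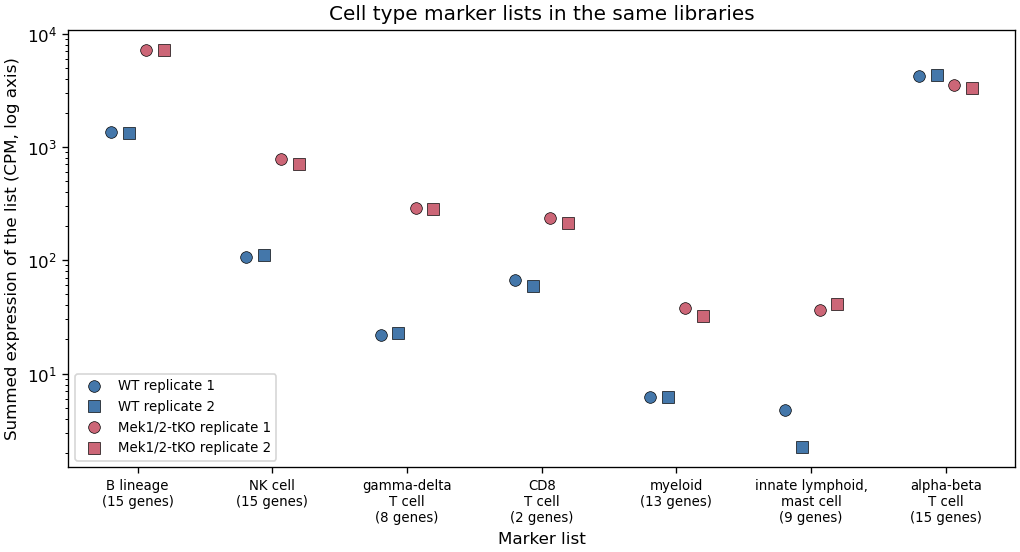
Summed expression of 7 lists of cell type markers in each library, in CPM on a log axis, with circles and squares for replicates 1 and 2, blue for WT and red for Mek1/2-tKO. The B-lineage, NK-cell, γδ T-cell, CD8 T-cell, myeloid, and innate lymphoid and mast cell lists lie higher in both Mek1/2-tKO libraries. The αβ T-cell list lies lower.

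Whether the factors of other lineages differed between the genotypes was read from the fit over all 14330 genes tested. Calls needed at least a 1.5-fold difference along with an adjusted p below 0.05. All 9 factors passed the filter on low counts and were tested. Eomes and Runx2 rose in Mek1/2-tKO, Gata3, Runx3 and Bhlhe40 fell, and Tbx21, Runx1, Foxp3 and Rora were not called. Among all genes tested, 19.3% were called higher, 16.4% lower and 35.8% in either direction, so that 5 of 9 stands against 35.8%. The counts called in each gene list stand against the same shares. The libraries were also scaled to 4 genes of the T-cell receptor complex, Cd3d, Cd3e, Cd3g and Cd247. On that scale 4788 genes were called higher and 1019 lower, in place of 2768 and 2355. The same 5 factors kept their calls. These 4 genes did not move together: with TMM scaling, Cd3e (log2 fold change -1.06) and Cd247 (-0.79) were called lower, while Cd3d (0.20) and Cd3g (0.24) were not called. The libraries of the genotypes did not overlap for any of the 9 factors, which was also the case for 78.3% of all genes tested. The median log2 fold change was -0.85 over the 9 factors and 0.02 over all genes tested.

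**Figure D2:**
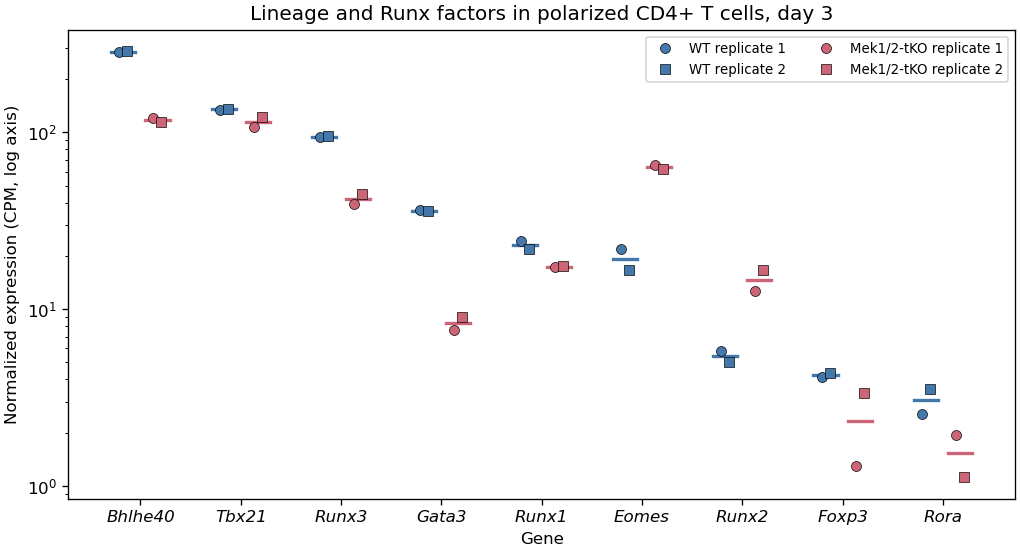
Expression of the 9 factors in each library, in CPM on a log axis, ordered by their level in WT, with circles and squares for replicates 1 and 2, blue for WT, red for Mek1/2-tKO and a line at each mean. Eomes and Runx2 lie higher in Mek1/2-tKO, and the other 7 genes lie lower, with the wide spread of Foxp3 and Rora at the low end.

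Of the T-box pair, Eomes rose and Tbx21 stayed near its WT level. Eomes, a factor of cytotoxic and memory T cells and of NK cells, was measured at 21.8 and 16.6 CPM in WT and at 65.6 and 61.7 CPM in Mek1/2-tKO. Both Mek1/2-tKO libraries stood far above both WT libraries, 3.31-fold on the means (log2 fold change 1.73 ± 0.13, adjusted p = 1.71e-07 with edgeR). Its change was above that of 92.3% of the genes tested.

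Tbx21, the master factor of Th1 cells, was measured at 133.6 and 135.9 CPM in WT and at 107.4 and 121.8 CPM in Mek1/2-tKO. The Mek1/2-tKO libraries lay below the WT libraries without overlap, but the fold was under the threshold (log2 fold change -0.23 ± 0.09, adjusted p = 0.0378 with edgeR and 0.0625 with DESeq2). Its sign turned when the libraries were scaled to Cd3d, Cd3e, Cd3g and Cd247, with a log2 fold change of 0.13 and an adjusted p of 0.33 with edgeR. Without 1 library its adjusted p was 0.178 (WT replicate 1), 0.234 (WT replicate 2) and 0.107 (Mek1/2-tKO replicate 1) with edgeR, and 0.000418 without Mek1/2-tKO replicate 2.

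Per kilobase of exon, Eomes made up 8.90 and 6.83% of the summed level of the T-box pair in WT and 26.8 and 23.3% in Mek1/2-tKO. The sum of the pair was 59.0 and 58.6 CPM per kilobase in WT and 59.0 and 63.8 in Mek1/2-tKO. With TMM scaling, the pair as a whole thus stayed at a like level while its composition shifted. This level depends on the scaling: scaled to Cd3d, Cd3e, Cd3g and Cd247, the log2 fold changes were 2.08 for Eomes and 0.13 for Tbx21. The count ratio of Eomes to Tbx21, which needs no scaling between libraries, was 0.163 and 0.122 in WT and 0.611 and 0.507 in Mek1/2-tKO, a log2 difference of 1.98. An exact permutation test of 2 against 2 libraries cannot go below p = 0.33, the value obtained for each of these shares and ratios.

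Genes of the Th1 program rose while Tbx21 did not. Of 22 Th1 genes tested, 18 were called higher and 2 lower, with a median log2 fold change of 2.54 against 0.02 over all genes tested. Ifng, the cytokine that defines Th1 cells, was measured at 127 and 121 CPM in WT and at 2054 and 1773 CPM in Mek1/2-tKO (log2 fold change 3.95). The chemokine gene Ccl3 (log2 fold change 4.67) and the receptor genes Klrg1 (4.27) and Cxcr6 (3.48) rose with it, as did Cxcr3, a chemokine receptor gene that T-bet activates, from 7.39 and 8.71 to 45.7 and 45.4 CPM. The genes for the IL-12 receptor, through which Th1 cells sense IL-12, fell: Il12rb1 from 179 and 199 to 64.5 and 69.1 CPM and Il12rb2 from 65.3 and 60.0 to 17.9 and 20.4 CPM. Stat4, the factor downstream of that receptor, was not called (log2 fold change -0.25). Several genes of this list, among them Nkg7 and Klrg1, are also genes of NK cells or innate lymphoid cells, whose marker lists rose in the same libraries.

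Gata3 fell further than any other of the 9 factors. It was measured at 36.3 and 35.7 CPM in WT and at 7.62 and 9.05 CPM in Mek1/2-tKO. The values within each genotype lay close together and the genotypes were well apart, 4.30-fold lower in Mek1/2-tKO on the means (log2 fold change -2.10 ± 0.15, adjusted p = 7.22e-08 with edgeR). Of all genes tested, 1.69% had a lower log2 fold change. The count ratio of Gata3 to Tbx21 went from 0.272 and 0.262 in WT to 0.071 and 0.0743 in Mek1/2-tKO.

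Genes of the Th2 program went both ways. Of 18 Th2 genes, 14 were tested, with 3 called higher, 6 lower and a median log2 fold change of -0.73. Il4, the cytokine of Th2 and Tfh cells, was measured at 3.34 and 3.42 CPM in WT and at 2.33 and 1.28 CPM in Mek1/2-tKO and was not called (log2 fold change -0.92, adjusted p = 0.0665 with edgeR). Il13, another cytokine that GATA-3 activates, rose from 7.70 and 8.97 to 17.1 and 24.9 CPM, against the direction of Gata3. Il1rl1, the gene of the IL-33 receptor, also rose (log2 fold change 3.43), and it is in the innate lymphoid and mast cell list too. The chemokine receptor genes Ccr8 (log2 fold change -3.40) and Ccr4 (-1.63) and the cytokine gene Il24 (-3.31) fell with Gata3, and the hypoxia factor gene Epas1, with 49 and 79 counts in WT and 0 and 6 in Mek1/2-tKO, was called lower as well.

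Among partners of GATA, T-box and Foxp3 factors, 21 of 22 were tested, with 2 called higher, 7 lower and a median log2 fold change of -0.42. Zfpm1, which encodes the GATA cofactor FOG-1, fell from 127 and 129 to 74.4 and 90.0 CPM. Chd4 and Mta1, which encode subunits of the NuRD complex that binds GATA-3, fell by 1.13 and 1.18 and Nfatc2, a partner of Foxp3, by 1.72 on the log2 scale. Ikzf3, the gene of the zinc finger factor Aiolos, and Twist1 were the members of this list that rose (log2 fold changes 1.36 and 1.22).

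Foxp3 and Rora, the factors of Treg and part of the Th17 program, were low in every library and were not called. Foxp3 was measured at 4.16 and 4.36 CPM in WT and at 1.29 and 3.35 CPM in Mek1/2-tKO, which are 81, 84, 20 and 63 counts. Replicate 1 of Mek1/2-tKO stood apart from the other 3 libraries, and the log2 fold change of -0.85 ± 0.40 did not pass (adjusted p = 0.0879 with edgeR). Without replicate 2 of Mek1/2-tKO it was -1.72 and was called (adjusted p = 0.00163 with edgeR), and without replicate 1 it was -0.34. Other genes share 31.5% of the exon bases of Foxp3, among them Flicr on the same strand and Ccdc22 on the opposite strand, so its count may hold reads of these genes.

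Rora, which encodes a nuclear receptor of Th17 cells and innate lymphoid cells, was measured at 2.57 and 3.53 CPM in WT and at 1.94 and 1.12 CPM in Mek1/2-tKO, from 50, 68, 30 and 21 counts. The genotypes did not overlap, but the gap between WT replicate 1 and Mek1/2-tKO replicate 1 was smaller than the spread within WT. The log2 fold change of -1.01 ± 0.43 did not pass (adjusted p = 0.0617 with edgeR and 0.183 with DESeq2). Without 1 library it ran from -1.44, without Mek1/2-tKO replicate 1, to -0.66, without Mek1/2-tKO replicate 2.

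Of 20 Treg genes, all tested, 5 were called higher and 7 lower, with a median log2 fold change of -0.47. Ctla4, an inhibitory receptor gene that Foxp3 activates, fell from 165 and 156 to 22.7 and 18.4 CPM. Il2ra, the gene of the IL-2 receptor α chain, and Izumo1r, that of folate receptor 4, fell by 0.91 and 1.68 on the log2 scale, while Entpd1, the gene of the ectonucleotidase CD39, rose (log2 fold change 2.03). Gpr83 had 76 and 88 counts in WT and 0 and 6 in Mek1/2-tKO.

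Of 19 Th17 genes, 17 were tested, with 9 called higher, 6 lower and a median log2 fold change of 0.76. The cytokine genes Il17a, at 2.87 and 1.04 CPM in WT and 48.6 and 45.2 CPM in Mek1/2-tKO, and Il22, at 0.92 and 1.14 CPM in WT and 44.2 and 26.5 CPM in Mek1/2-tKO, rose from very low levels, and Il17f had 2 and 6 counts in WT against 183 and 260 in Mek1/2-tKO. Il1r1, the gene of an IL-1 receptor, had 0 and 2 counts in WT and 16 and 24 in Mek1/2-tKO and was called higher. Other genes of the list moved the other way: Il6ra, of the IL-6 receptor, fell from 22.7 and 24.2 to 6.07 and 7.08 CPM. Irf4 fell from 578 and 550 to 186 and 209 CPM. On the log2 scale, Stat3 fell by 0.68 and the cytokine gene Il21 by 2.53. The factor genes Batf and Ahr were not called (log2 fold changes -0.19 and 0.30). The γδ T-cell list, cells that also make IL-17, went from 21.9 and 22.6 to 290 and 283 CPM in the same libraries. Of this sum, Blk, which is also in the B-lineage list, gave 14.9 and 17.8 CPM in WT and 105 and 116 CPM in Mek1/2-tKO.

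**Figure D3:**
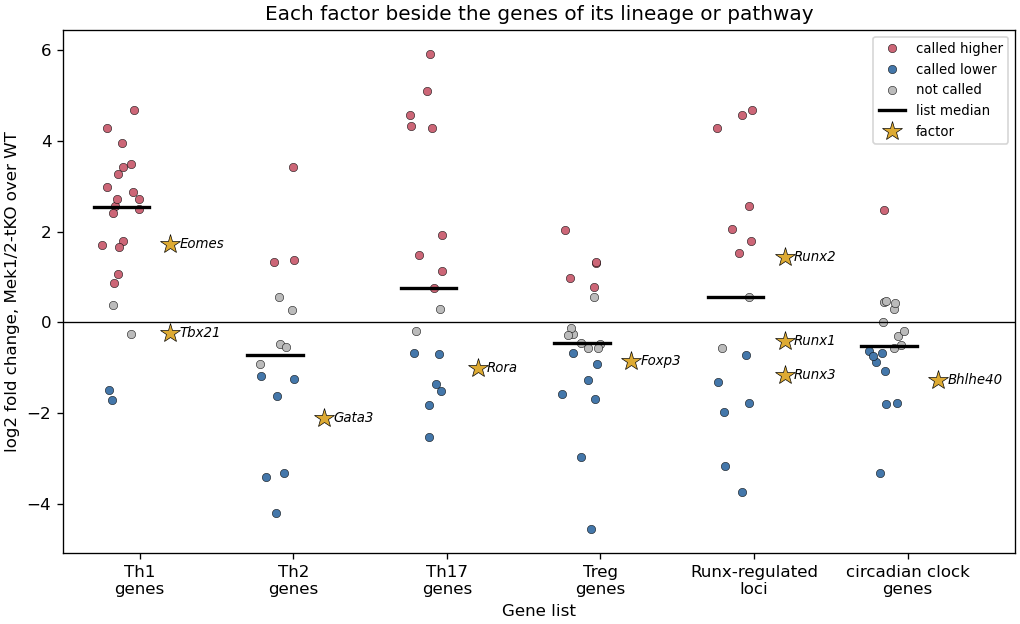
The log2 fold change of Mek1/2-tKO over WT (vertical axis) for each tested gene of 6 lists, in red where called higher, blue where called lower and grey where not called, with a black line at the median of each list and stars for the factors. The Th1 genes lie mostly above 0 with a median of 2.54 while Tbx21 lies at -0.23, and Gata3 lies below the Th2 median of -0.73.

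The Runx genes moved in opposite directions. Runx3, the Runx factor of Th1 and CD8+ T cells, was measured at 93.6 and 95.5 CPM in WT and at 39.4 and 44.9 CPM in Mek1/2-tKO. The genotypes were well separated, 2.24-fold lower in Mek1/2-tKO (log2 fold change -1.16 ± 0.10, adjusted p = 5.66e-07 with edgeR). No exon base of Runx3 is shared with another gene.

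Runx2, best known for bone formation and also present in activated and memory T cells, was measured at 5.80 and 5.03 CPM in WT and at 12.6 and 16.7 CPM in Mek1/2-tKO. The Mek1/2-tKO libraries lay above both WT libraries and differed more from each other than the WT libraries did (2.71-fold, log2 fold change 1.44 ± 0.21, adjusted p = 7.25e-05 with edgeR). The antisense gene Runx2os1 covers 5.87% of its exon bases on the opposite strand, and the strand setting of the counting was not given in the sources used here.

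Runx1 was measured at 24.2 and 21.8 CPM in WT and at 17.2 and 17.5 CPM in Mek1/2-tKO. The genotypes did not overlap, but the fold was under the threshold (log2 fold change -0.40 ± 0.14, adjusted p = 0.0271 with edgeR and 0.0989 with DESeq2). Scaled to Cd3d, Cd3e, Cd3g and Cd247, its log2 fold change was -0.05 (adjusted p = 0.814 with edgeR), and without WT replicate 1 it was -0.33 (adjusted p = 0.193 with edgeR).

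Per kilobase of exon, Runx3 made up 87.5 and 88.9% of the summed level of the 3 Runx genes in WT and 73.4 and 72.9% in Mek1/2-tKO. The share of Runx2 went from 3.07 and 2.65% to 13.3 and 15.3%, and that of Runx1 from 9.41 and 8.45% to 13.4 and 11.8%. The sum of the 3 genes went from 21.4 and 21.5 to 10.7 and 12.3 CPM per kilobase. The count ratio of Runx2 to Runx3 was 0.062 and 0.0527 in WT and 0.320 and 0.371 in Mek1/2-tKO, a log2 difference of 2.59. Runx3 remained the most abundant of the 3 in every library, and Runx2 passed from the lowest to a level that overlapped with Runx1. The smallest p of the exact permutation test, 0.33, holds for these shares too.

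**Figure D4:**
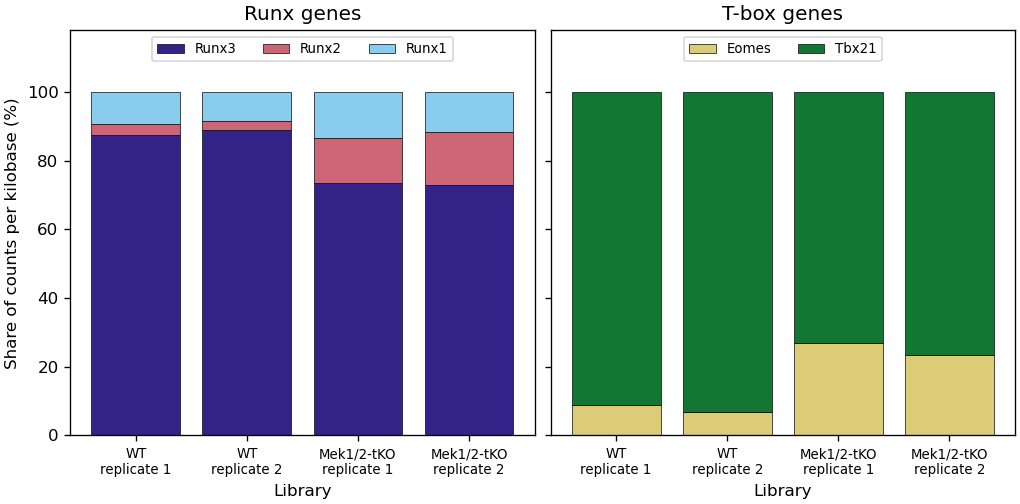
Share of each gene in the summed counts per kilobase of Runx1, Runx2 and Runx3 (left) and of Tbx21 and Eomes (right), in percent, with 1 bar per library. The red Runx2 segment widens from 3.07 and 2.65% in WT to 13.3 and 15.3% in Mek1/2-tKO, and the yellow Eomes segment from 8.90 and 6.83% to 26.8 and 23.3%.

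Of 22 Runx partners and co-repressors, 19 were tested, with 2 called higher, 6 lower and a median log2 fold change of -0.31. Over all genes tested, 19.3% were called higher and 16.4% lower. Cbfb, which encodes the obligate partner CBFβ, was measured at 162 and 169 CPM in WT and at 151 and 139 CPM in Mek1/2-tKO and was not called (log2 fold change -0.19, adjusted p = 0.0623 with edgeR). Zbtb7b, the gene of ThPOK, which opposes Runx3 in the choice between CD4 and CD8 fates, fell with Runx3, from 65.1 and 66.1 to 30.6 and 30.2 CPM. The acetyltransferase gene Kat6b fell by 1.02 on the log2 scale, and Cbfa2t3, of the ETO family of co-repressors, rose (log2 fold change 1.34).

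Of 16 loci that Runx proteins are known to bind or control, 15 were tested, with 7 called higher and 6 lower, and a median log2 fold change of 0.55. Runx3 with CBFβ silences Cd4 and supports Cd8a in CD8+ T cells, and here Cd4 fell (log2 fold change -3.73) and Cd8a rose (2.06) in libraries in which Runx3 itself was lower. Spp1, the gene of osteopontin, rose from 3.03 and 3.42 to 78.0 and 74.7 CPM, and Csf2, the gene of the cytokine GM-CSF, from 5.95 and 10.1 to 174 and 137.0 CPM. Il2 fell from 113 and 111 to 15.6 and 9.64 CPM. Both CD8 T-cell markers belong to this list. Other genes of it stand in the Th1 and Th17 lists too, among them Ccl3 and Csf2, so its count is not separate from the values above.

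Bhlhe40 was the most abundant of the 9 factors per kilobase in WT and fell in Mek1/2-tKO. It was measured at 283 and 287 CPM in WT and at 121 and 115 CPM in Mek1/2-tKO. The replicates of each genotype lay close together, and the genotypes differed 2.42-fold (log2 fold change -1.27 ± 0.08, adjusted p = 1.35e-08 with edgeR). Its paralog Bhlhe41 moved the other way, from 1.69 and 1.82 CPM in WT to 8.20 and 11.3 CPM in Mek1/2-tKO.

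Of 18 genes of the circadian clock, in which both proteins act as repressors, 1 was called higher, which was Bhlhe41, and 8 lower, with a median log2 fold change of -0.53. Nr1d1, which encodes REV-ERBα, had 14 and 22 counts in WT and 0 and 3 in Mek1/2-tKO and was among them. Ciart fell from 13.8 CPM in both WT libraries to 4.07 and 3.89 CPM. The period genes Per1 and Per2 fell by 0.87 and 1.08 and Npas2 by 1.77 on the log2 scale, whereas Arntl, which encodes BMAL1, was not called (log2 fold change 0.29). The time of day of the cultures was not given in the sources used here.

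Of 24 paralogs of the 9 factors, 12 had no count in any library and 7 were tested. Gata2 (2 and 14 counts in WT, 56 and 72 in Mek1/2-tKO), Gata1 (43 and 24, 76 and 81) and Tbx6 (4 and 4, 35 and 39) were called higher from low counts, along with Bhlhe41, and Mga, a large T-box protein gene, was called lower (log2 fold change -0.89). Gata1 and Gata2 are factors of mast cells and other myeloid cells, and the innate lymphoid and mast cell list went from 4.72 and 2.23 to 36.3 and 41.5 CPM in the same libraries.

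Ordered by mean level per kilobase, the factors in WT ran from Bhlhe40 at 60.6 CPM per kilobase through Tbx21 at 54.2, Runx3 at 18.9, Gata3 at 9.05, Eomes at 4.63, Runx1 at 1.91, Foxp3 at 0.93 and Runx2 at 0.613 to Rora at 0.233, and the libraries of no neighbours in this order overlapped. In Mek1/2-tKO the order was Tbx21 at 46.1, Bhlhe40 at 25.1, Eomes at 15.3, Runx3 at 8.43, Gata3 at 2.10, Runx2 at 1.66, Runx1 at 1.45, Foxp3 at 0.508 and Rora at 0.117 CPM per kilobase, and only Runx2 and Runx1 overlapped among neighbours. Bhlhe40 and Tbx21 changed places at the top, and Eomes passed both Runx3 and Gata3.

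**Figure D5:**
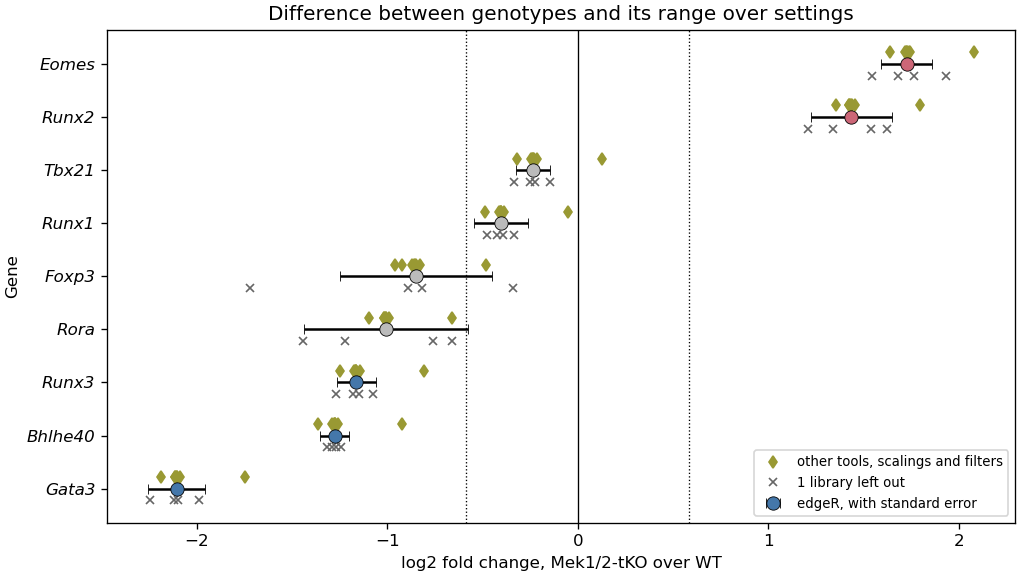
The log2 fold change of Mek1/2-tKO over WT for each factor, with circles and bars for edgeR's estimate and its standard error, diamonds for other tools, scalings and filters and crosses for fits without 1 library, and dotted lines at a fold of 1.5. The 5 called factors keep their side of the dotted line in every fit, while the crosses of Foxp3 run from -1.72 to -0.34.

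The genes whose expression over the 4 libraries lay nearest to that of Eomes were Gsap, Trim5 and the immunoglobulin segment Igkv4-51, at Euclidean distances of 0.064, 0.116 and 0.097 on log2(CPM + 0.5) centred on each gene's mean. Those nearest to Gata3 were Satb1, which encodes a chromatin organizer of T cells, at 0.075, Adgrl1 at 0.077 and Spry1, which encodes a feedback inhibitor of MAPK signalling, at 0.085. The log2 fold changes of Adgrl1 and Spry1 were -2.04 and -2.19 beside the -2.10 of Gata3. Igkv4-51, with 6 and 2 counts in WT and 27 and 34 in Mek1/2-tKO, had a log2 fold change of 3.07 against 1.73 for Eomes, so its small distance rests on the 0.5 added to low values. The distance covers 4 libraries only.

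The same promoter windows were also searched on both strands for other letters. The ETS core CCGGAA, bound by factors that ERK can phosphorylate, stood in 14.9% of all windows and in 2 of the 11, those of Gata3 and of the proximal promoter of Runx1. The AP-1 letters TGANTCA stood in 7.81% of all windows and in none of the 11, the E-box CACGTG in 7.15% and in 1 (Runx1), the T-box letters TCACAC in 14.5% and in 2 (Runx1 and Runx2), and the GATA letters AGATAA in 11.2% and in 1 (Foxp3). The absence of a match concerns only these letters in these windows.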

How the data were processed

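RNA of 2 WT and 2 Mek1/2-tKO libraries was prepared with a stranded mRNA kit. The authors trimmed reads with Trimmomatic 0.36, mapped them to GRCm38 (the mapper is written STRA in the methods), assigned them to genes with featureCounts of Subread 1.5.1 and deposited raw counts per gene, with no normalization. The annotation release and the strand setting were not given in the sources used here. Replicates were not pooled, and their counts differed by more than sampling noise (chi-square per gene 4.19 in WT and 10.9 in Mek1/2-tKO).

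From these counts, edgeR 4.0.16 in R 4.3.3 was run on all genes (TMM factors, a robust quasi-likelihood fit after filterByExpr, p-values adjusted by Benjamini-Hochberg over 14330 genes), and calls needed a 1.5-fold difference and an adjusted p below 0.05. The biological coefficient of variation was 0.0918. CPM used TMM-scaled totals, and levels per kilobase used the exon length in the deposited files. The standard errors include the spread between libraries. Symbols came from GENCODE and promoters from RefSeq. Family shares were compared with two-sided exact permutation tests.

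The 9 factors, the gene lists and the rule for named genes (the factors, Map2k1, Map2k2, defining partners, the 4 largest called changes of a list, and the 3 nearest patterns to the factor with the largest rise and fall) were chosen with earlier results of these data known, and the lists share genes. Ccr4, Il21, Stat3, Il2, Per1, Per2, Arntl, Nkg7 and Mga were named after their values had been seen. As alternatives, DESeq2 1.42.0, edgeR's likelihood-ratio test, other scalings, filters and thresholds, a replicate block and leaving out each library were tried. A gene of the Runx partner list that this rule takes in is not reported here.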

Additional observations from a re-analysis of the deposited data

How the results depend on the processing

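Of the 9 factors, the 5 that were called stayed called in the same direction in all 12 other fits (DESeq2, a likelihood-ratio test, 3 other scalings, 2 other filters, a replicate block and 4 fits without 1 library each). Scaled to Cd3d, Cd3e, Cd3g and Cd247, the median log2 fold change of all genes moved from 0.02 to 0.37, 4788 genes were called higher and 1019 lower in place of 2768 and 2355, 31 of the genes in the lists were called lower in place of 49, and the log2 fold change of Tbx21 turned to 0.13. With a fold of at least 2, 1725 genes were called higher, 1040 lower and 32 listed genes lower, and with no fold threshold 3903 genes and 5 factors were called lower. Foxp3 and Rora crossed the threshold under some settings. Foxp3 did so with no filter (-0.86, adjusted p = 0.0443 with edgeR). Rora did so with edgeR's likelihood-ratio test (-1.01, adjusted p = 0.0327) and with library size alone (-1.10, adjusted p = 0.039 with edgeR). It also did so with at least 10 counts in every library (-0.99, adjusted p = 0.0434 with edgeR). Neither passed with DESeq2 (adjusted p = 0.21 for Foxp3 and 0.183 for Rora). Neither passed when scaled to Cd3d, Cd3e, Cd3g and Cd247 (adjusted p = 0.315 for Foxp3 and 0.209 for Rora with edgeR). The cause was not tested. Leaving out each library in turn gave -1.72 to -0.34 for Foxp3 and -1.44 to -0.66 for Rora. As shares of counts in place of shares per kilobase, Runx1, Runx2 and Runx3 took 23.5, 19.6 and 56.8% in Mek1/2-tKO, in place of 12.6, 14.3 and 73.1%, and Tbx21 and Eomes 64.2 and 35.8%, in place of 75.0 and 25.0%. Libraries with the same replicate number did not deviate together (correlation -0.02 across genes), and with a replicate block 2 factors were called higher and 3 lower, 2652 genes higher and 2300 lower.
With 2 libraries per genotype, no share or ratio could reach a p under 0.33. Foxp3 and Rora rest on 20 to 84 counts per library. Leaving out a library leaves 1 in its genotype, which is then assumed to vary like the others.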
